A study of Canis lupus familiaris with 7 samples.

Results

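The cytosolic ribosomal proteins and the translation initiation and elongation factors were followed across 7 primary canine osteosarcomas, tumours of bone. Members were taken by gene symbol from a 1-colour Agilent dog array of 43603 probes of 60 bases, which carry 11804 gene symbols. The symbols RPL or RPS followed by a digit (without the RPS6K kinases), RPLP followed by a digit, RPSA, and those beginning with EIF2S, EIF3, EIF4 or EEF matched 170 probes under 83 symbols. Of these, 92 probes were for ribosomal proteins (48 symbols) and 75 for translation factors (32 symbols). The remaining 3 carried symbols that fit the pattern but do not name a ribosomal protein (RPL7L1, RPS19BP1, RPL6P) and were kept apart. Probes well above background on 3 or more arrays entered the comparison, which 91 ribosomal protein probes (47 symbols) and 73 factor probes (31 symbols) did. RPL11, EIF4E1B, RPL6P and 1 of the EEF1E1 probes were not well above background on enough arrays.

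The deleted group comprised 4 tumours that the labels give as DLG2 deleted, and the wild-type group 3 tumours given as DLG2 wild type. The DLG2 product is a MAGUK scaffold, a protein that holds signalling complexes at the cell membrane. Deleted tumours 1 to 4 came from a German Shepherd and Collie mix of 8 years (MC), a Rottweiler cross of 9 years (FS), a Greyhound of 6 years (MC) and a Great Pyrenees of 7 years (FS). Wild-type tumours 1 to 3 came from a Boxer of 12 years (FS), a Labrador Retriever mix of 10 years (FS) and a Bull Mastiff of 8 years (MC), the sex codes being those of the labels. The labels name no treatment, each tumour was hybridised once, and tumours of separate dogs differ in breed, age and cell make-up as well as in DLG2.

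Values are log2 intensities after background correction and quantile normalization, and differences are deleted minus wild-type. Levels were compared between tumours within 1 probe and never between probes. The number of probes well above background per array lay between 30280 and 34538. The single DLG2 probe (canFam2 chromosome 21, 18338004 to 18338063) read 10.34, 11.44, 10.49 and 10.84 in deleted tumours and 10.90, 12.04 and 11.75 in wild-type tumours, so the groups overlapped (difference -0.79, SE 0.36, limma adjusted p = 0.704). The arrays of wild-type tumours 1 and 2 resembled each other most, with a Pearson r of 0.987 over probes against 0.935 to 0.965 in the other 20 pairs. Their members differed by a median of 0.15, against 0.22 to 0.44 in those pairs. Of the osteoblast genes, COL1A1 lay between 14.10 and 15.96 and COL1A2 between 17.00 and 17.72 in all 7 tumours, while BGLAP, the bone matrix protein osteocalcin, ranged from 9.68 in deleted tumour 2 to 14.21 in wild-type tumour 3.

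Ribosomes consist of a small subunit, which reads the message, and a large subunit, which joins the amino acids. Initiation factors bring the small subunit to the capped end of a message: eIF4E binds the cap, eIF4G is the scaffold, eIF4A is the helicase with its helpers eIF4B and eIF4H, eIF3 bridges to the ribosome and eIF2 carries the initiator tRNA. Elongation factors then deliver each charged tRNA (eEF1A, recharged by the eEF1B subunits) and move the ribosome along (eEF2). Ribosomal protein messages and several elongation factor messages share a pyrimidine tract at their start through which mTOR signalling adjusts their translation, and their abundance is a known mark of growing cells.

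No member was called between the groups. The call needed both an adjusted p below 0.1 (Benjamini-Hochberg, limma over all 32309 kept probes) and an unadjusted p below 0.05, and 0 probes of the whole array met it, a percentage of 0. The smallest adjusted p was 0.103 over the array, 0.505 among ribosomal protein probes and 0.421 among factor probes. At an unadjusted p below 0.05 alone stood 3 of 91 ribosomal protein probes (3.3%) and 7 of 73 factor probes (9.59%), beside 2374 probes or 7.35% of the array. All 3 ribosomal protein probes were lower in deleted tumours (background 4.19%), as were 5 of the 7 factor probes, and the other 2 were higher (background 3.16%). The groups did not overlap at 3 ribosomal protein probes, all lower, and at 8 factor probes, 6 lower and 2 higher, where 8.15% of all probes had separate groups (4.25% lower and 3.9% higher). By probe, both shares were below those of the array for ribosomal proteins and above them for factors, and probes of 1 gene are not independent of each other. By gene, each at its brightest probe, 1 of 47 ribosomal protein genes (2.13%) and 2 of 31 factor genes (6.45%) stood at an unadjusted p below 0.05. Both of these shares were below the 7.6% of all genes.

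With 1 probe per gene, the brightest, the median difference of the 47 ribosomal protein genes was -0.09 beside 0.02 for all 10121 genes, and 34 of them had a value below 0. Under 75th percentile scaling in place of quantile normalization that median came to 0.01 (normexp background) or 0.04 (processed signal), so its sign was not the same under each scaling. Over all probes the same 2 settings moved the median difference from 0.00 to 0.11 and to -0.06. Relative to all probes, the ribosomal protein median thus lay below under normexp with either scaling and above under the processed signal with 75th percentile scaling. Small subunit genes had a median of -0.11 (24 genes, 19 below 0), large subunit genes -0.05 (21 genes, 14 below 0) and the stalk genes RPLP0 and RPLP1 -0.02. The 31 factor genes had a median of -0.03, 17 of them below 0.

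Tumours of 1 group differed more than the groups did. The median deviation of the ribosomal protein genes from their own means was 0.22, -0.08, -0.21 and -0.07 in the deleted group (tumours 1 to 4). It was 0.22, 0.03 and -0.04 in the wild-type group. Deleted tumour 1 and wild-type tumour 1 were thus equally high, and deleted tumour 3 was lowest. In wild-type tumour 1, 43 of the 47 genes lay above their own mean, in deleted tumour 1 35 and in deleted tumour 3 8. By probes, 35 of 91 (38.5%) had their highest value in deleted tumour 1, where 17.3% of all probes had theirs, and 0 had their lowest in wild-type tumour 1, against 9.56% of all probes. In bulk tumour RNA, fewer cells of a type and less RNA per cell cannot be told apart. The factor genes spread less, from -0.12 in deleted tumour 3 to 0.07 in wild-type tumour 1. Arrays were split into 2 sessions at noon, by the hour of feature extraction in the file headers without its date. Both high tumours belonged to the second session, which also held wild-type tumour 3 at -0.04. The part of the session in these tumour medians was not tested. The group difference with extraction session as a term is given in the closing section. Without deleted tumour 1, 10 of the 91 ribosomal protein probes stood at an unadjusted p below 0.05, beside 7.87% of the array. The median difference was then -0.20.

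**Figure D1:**
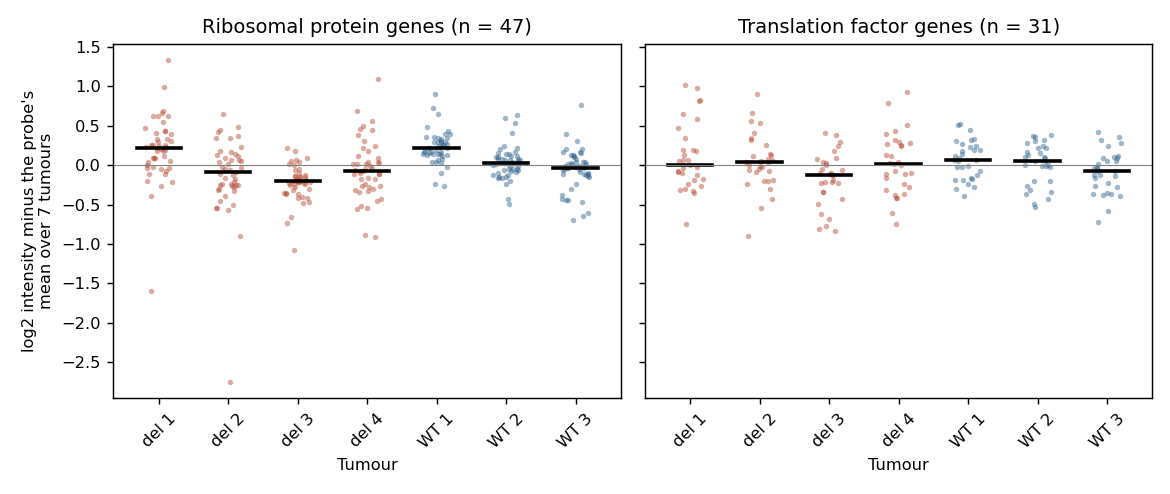
Each point is 1 gene (its brightest probe), placed by its log2 intensity minus its own mean over the 7 tumours; red marks the 4 deleted and blue the 3 wild-type tumours, and black bars are medians. The ribosomal protein medians run from -0.21 in deleted tumour 3 to 0.22 in deleted tumour 1 and wild-type tumour 1, and the 2 groups overlap; the lowest point is RPS3A in deleted tumour 2.

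The largest differences of any member were those of EEF1A1, the factor that delivers charged tRNA to the ribosome and one of the most abundant proteins of dividing cells. They were found at 2 of its 4 probes. Probe A_11_P128278 read 12.41, 12.00, 12.05 and 11.44 in deleted tumours and 13.29, 13.09 and 13.06 in wild-type tumours. Every deleted tumour lay below every wild-type tumour there (difference -1.17, SE 0.23, limma adjusted p = 0.421). Probe A_11_P175567 read 11.63, 10.85, 10.87 and 10.57 against 12.17, 12.01 and 11.91, again without overlap (-1.05, SE 0.25, limma adjusted p = 0.5001). The remaining probes did not share this. A_11_P139066 read 14.62, 13.61, 13.37 and 13.68 against 14.03, 13.37 and 13.89 (0.06, SE 0.32), and A_11_P178168 read 13.02, 12.72, 12.72 and 12.97 against 12.95, 12.51 and 12.72 (0.13, SE 0.15). Neither direction nor overlap was thus shared by the 4 probes of this gene.

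The last 30 of the 60 bases of each EEF1A1 probe are shown, 5′ to 3′, because the probes that differed and those that did not carry different letters; capitals mark AATAAA, the commonest polyadenylation signal. All lie on the minus strand of canFam2 chromosome 12. The files place A_11_P128278 and A_11_P175567 over a full 60 bases, at 38579243 to 38579302 and 38579003 to 38579062. They place A_11_P139066 over only 27 bases (38578999 to 38579025) and A_11_P178168 over 17 (38578999 to 38579015).
EEF1A1 A_11_P128278: tctttaaagaccctatttgatcctaaaact
EEF1A1 A_11_P139066: aaatctgtcgcagaattttgagacccatta
EEF1A1 A_11_P175567: tagaaactAATAAAagaatttcacaactca
EEF1A1 A_11_P178168: aaatgcaccatggaagctttgagtgaggct
EEF1A1 has many near-identical processed copies in mammalian genomes, and whether a probe also reads such a copy was not tested.

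**Figure D2:**
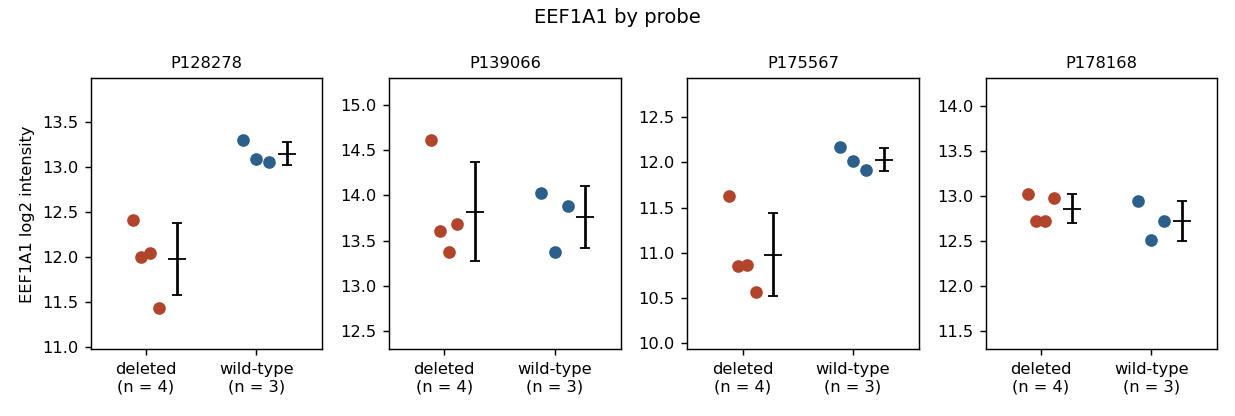
Log2 intensity of EEF1A1 at each of its 4 probes in deleted (red, n = 4) and wild-type tumours (blue, n = 3); the bar beside the points is the mean ± 1 SD, and each panel spans 3 log2 units. At A_11_P128278 (difference -1.17) and A_11_P175567 (-1.05) the groups are apart, and at the other 2 probes (0.06 and 0.13) they overlap.

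Among the other elongation factors, EEF2, the translocase, had differences of -0.22 and -0.38 at its 2 probes. The second of them, near the floor of the scale, stood at 6.12, 6.10, 6.10 and 6.48 against 6.75, 6.54 and 6.47. Deleted tumour 4 lay just above wild-type tumour 3 there (SE 0.14, limma adjusted p = 0.653). EEF2K, the kinase that inhibits eEF2, showed a difference of 0.08 (SE 0.18). EEFSEC, which delivers selenocysteine, stood at -0.16 (SE 0.21). Of the eEF1B subunits and partners, EEF1D had 0.26 to 0.36 at 3 probes, EEF1G 0.28 (SE 0.31), EEF1E1 0.42 (SE 0.25) and EEF1B2 -0.01 (SE 0.15), none of them at an unadjusted p below 0.05. The EEF1B2 probe was near the floor of the scale (5.71 to 6.22) and well above background on only 5 arrays. The EEF1G probe, well above background on 6, read 5.88 to 6.35 except for 7.17 in deleted tumour 4.

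EIF4EBP1, a repressor that sequesters the cap-binding protein eIF4E and is a target of mTOR, was the factor whose single probe was higher in every deleted tumour. It read 10.30, 10.98, 10.82 and 10.55 in deleted tumours and 10.14, 10.10 and 10.03 in wild-type tumours (difference 0.57, SE 0.18, limma adjusted p = 0.581). The wild-type values spanned far less than the deleted ones, whose lowest was deleted tumour 1. The related repressor EIF4EBP2 was nearly level over the tumours, from 8.82 to 9.23 (difference -0.04, SE 0.14). EIF4ENIF1, which carries eIF4E to the nucleus, had differences of 0.01 to 0.17 at 3 probes. EIF4E itself had -0.32 (SE 0.28) and 0.06 (SE 0.26) at 2 probes, with the groups overlapping at both.

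Of the cap complex, EIF4H, which stimulates the eIF4A helicase, was lower at all 5 of its probes, by differences from -0.33 to -0.20, and the groups were separate at 3 of them. At A_11_P163333 the values were 10.76, 10.97, 10.82 and 10.71 against 11.13, 11.27 and 11.02 (-0.33, SE 0.12, limma adjusted p = 0.638). These probes report on 1 transcript region of chromosome 6 (9181516 to 9183196) in the same RNA and are not independent of each other. EIF4G2, a scaffold related to eIF4G that lacks the eIF4E site, had differences above 0 at all 5 probes, from 0.10 to 0.52. At A_11_P191818 it read 9.80, 10.23, 10.21 and 9.80 against 9.63, 9.60 and 9.26 (0.52, SE 0.17, limma adjusted p = 0.613). The groups overlapped at the other 4 probes. The files place A_11_P191818 over only 21 bases (37156128 to 37156148) and each of the other 4 over 60. EIF4A1 and EIF4A3, a helicase of initiation and one of the exon junction complex, had differences of -0.09 (SE 0.30) and, over 2 probes, -0.26 and -0.18. EIF4G3 stood at 0.29 (SE 0.30) and EIF4E3 at 0.12 (SE 0.17).

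Of the eIF3 scaffold, 10 genes had a value, 8 of them below 0. EIF3D, a cap-binding subunit, was lower at its 3 probes (-0.55 to -0.41). Its probe A_11_P0000038829 read 14.34, 14.14, 13.98 and 13.46 against 14.53, 14.38 and 14.63 (-0.53, SE 0.22, limma adjusted p = 0.679). The highest deleted value missed the lowest wild-type value by a small gap, and at the other 2 probes the groups overlapped. EIF3A, the largest subunit, had 4 probes between -0.47 and -0.11, and EIF3G 2 probes at -0.35 and -0.22, none at an unadjusted p below 0.05. EIF3B, the other core subunit, stood within -0.09 and 0.15 at its 5 probes. Of eIF2, EIF2S3 (the gamma subunit, on the X chromosome) read 12.64, 12.20, 10.90 and 12.06 against 11.36, 11.40 and 11.09 at A_11_P114256 (0.67, SE 0.39) and had 0.60 (SE 0.29) at a second probe. Deleted tumour 3 lay below all wild-type tumours at both, so the groups overlapped. EIF2S1, the subunit whose phosphorylation halts initiation, had 0.20 (SE 0.24).

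**Figure D3:**
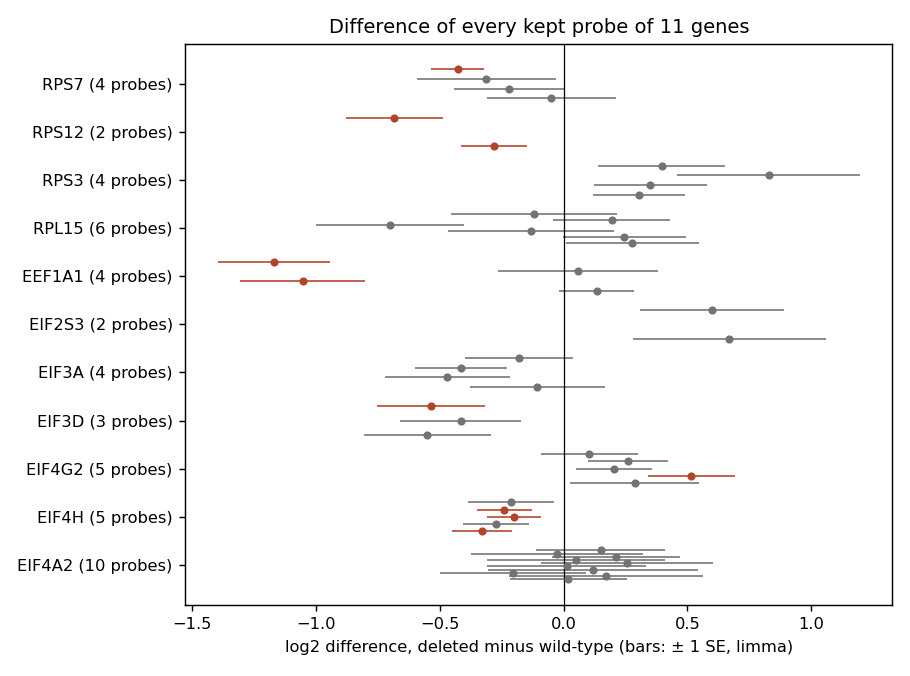
Log2 difference (deleted minus wild-type) of every kept probe of 11 genes, with bars of ± 1 SE from limma; red marks probes at which no deleted tumour overlapped a wild-type tumour. The 5 EIF4H probes lie together between -0.33 and -0.20, whereas the 4 EEF1A1 probes split into a pair near -1.1 and a pair above 0.

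Among small subunit proteins, RPS12 and RPS7 had separate groups. RPS12 read 6.87, 7.69, 7.20 and 7.27 against 7.88, 8.01 and 7.93 at A_11_P000004125 (-0.68, SE 0.20, limma adjusted p = 0.561). Its second probe was lower in every deleted tumour as well (-0.28, SE 0.13). RPS7 read 16.48, 16.35, 16.38 and 16.54 against 16.94, 16.85 and 16.80 at A_11_P0000021288, with each group within 0.2 of itself (-0.43, SE 0.11, limma adjusted p = 0.505). Its other 3 probes had -0.31, -0.22 and -0.05 with overlapping groups, and deleted tumour 1 was highest at all 3. The probe at -0.31 (A_11_P086566, 17.31 in deleted tumour 1) shares a run of 54 bases with A_11_P0000021288, so the separation did not recur at a nearly identical probe. RPL7A, of the large subunit, read 14.21, 13.98, 13.99 and 14.16 against 14.59, 14.47 and 14.19 (-0.33, SE 0.14, limma adjusted p = 0.680), with deleted tumour 1 just above wild-type tumour 3.

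RPS3, a small subunit protein at the message entry that also acts in DNA repair, had differences above 0 at all 4 probes (0.30 to 0.83), none at an unadjusted p below 0.05. At A_11_P182038 it read 15.22, 14.87, 14.86 and 14.46 against 14.64, 14.49 and 14.51. Deleted tumour 4 was the lowest of all 7 there, and the other deleted tumours were the highest. RPS3 and EIF4G2 were the members on chromosome 21, at 26185614 to 26187170 and 37156105 to 37160713, the chromosome that also carries the DLG2 probe. DNA copy number was not analysed here.

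RPSA, the ribosomal protein once known as the laminin receptor, was covered by 5 probes, 4 of which overlap by at least 30 shared bases at canFam2 chromosome 23. Their last 30 bases are shown because shifts of a few bases went with very different spreads over the tumours; capitals again mark AATAAA.
RPSA A_11_P181808: aacagaatggaaataaggttgacggaaagg
RPSA A_11_P141235: ataaggttgaccgaaAATAAAcagtttcta
RPSA A_11_P164828: gttgacggaaAATAAAcagtttctaaaagc
RPSA A_11_P187508: ggaaAATAAAcagtttctaaaagtcttgcc
The first 3 read between 15.36 and 16.99 in all 7 tumours, with an SD over tumours of 0.16, 0.15 and 0.25. The fourth, which shares a run of 53 bases with the third and runs 20 bases past AATAAA, read 13.79, 10.89, 13.38 and 13.94 in deleted and 14.25, 12.37 and 13.66 in wild-type tumours (SD 1.18). Deleted tumour 2 was thus more than 2 log2 units below the next deleted tumour at this probe, and wild-type tumour 2 lay more than 1 below the other wild-type tumours. At the 3 probes beside it deleted tumour 2 lay within the range of the other deleted tumours, and wild-type tumour 2, though again lowest of its group, lay close to the others. The difference between groups was -0.42 (SE 0.82) at the fourth probe and -0.06 to 0.04 at the first 3.

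RPLP1, an acidic protein of the stalk that recruits elongation factors, and RPS3 also had overlapping probes of unequal spread.
RPLP1 A_11_P190783: gactaaacttttataagctgctcAATAAAa
RPLP1 A_11_P146833: gctgctcAATAAAaagctgaagtcctgaaa
RPLP1 A_11_P062686: gttgctgtcggtttttcagttgtttgagga
RPS3 A_11_P181313: gtgaagacctttAATAAAatatttgagtaa
RPS3 A_11_P162548: AATAAAatatttgagtaaaacacgtggcac
RPLP1 had an SD over tumours of 0.27 and 0.24 at the probes with 1 and 17 bases after AATAAA. It had an SD of 0.75 at the third, where 44 bases follow the signal, and read 14.56, 12.18, 13.44 and 13.73 against 14.21, 13.53 and 13.54 there. Deleted tumour 2 was again lowest. RPS3 had an SD of 0.35 with 12 bases after AATAAA and 0.67 with 24, where the values were 15.69, 15.82, 15.69 and 15.28 against 14.73, 14.00 and 15.65. Here wild-type tumour 2 was lowest. RPL22L1, a paralog of RPL22, had an SD of 0.38 with 18 bases after the signal and 0.71 with 34. Overlapping probes did not always differ so: those of RPS28, which share 54 bases, had SDs of 0.28 and 0.25 with 17 and 23 bases after the signal, and those of RPS9, which share 51 to 53, had 0.19, 0.25 and 0.23 with 13, 14 and 21. RPS3A, whose only probe holds no AATAAA, spread most of all members (SD 1.35), with 14.60, 10.51, 13.33 and 13.39 against 14.17, 12.84 and 14.03.

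AATAAA, searched in the printed orientation, stood in 36 of the 164 member probes (22%) and in 3026 of all 32309 kept probes (9.37%). Member probes with 0 to 9, 10 to 19, 20 to 29 and 30 to 54 bases after the last AATAAA numbered 7, 21, 5 and 3, and their median SD over tumours was 0.27, 0.25, 0.45 and 0.71. The SDs ran from 0.23 to 1.18 in the 5 probes with 20 to 29 bases and from 0.16 to 0.75 in the last 3, where RPL19 A_11_P052416, with 53 bases after the motif the furthest past it, had the smallest. Over all kept probes the corresponding medians were 0.39, 0.39, 0.38 and 0.28, beside 0.29 for probes without the motif. The order seen in the few member probes was thus not that of the array.

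**Figure D4:**
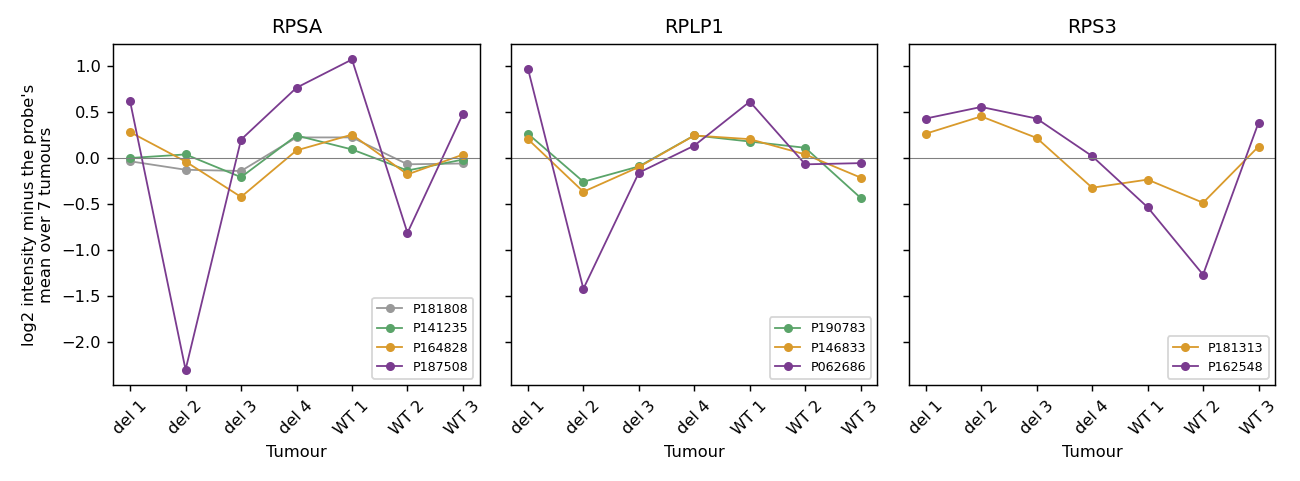
Log2 intensity minus the probe's own mean over the 7 tumours, for overlapping probes of RPSA, RPLP1 and RPS3; each line is 1 probe, and purple is the probe that reaches furthest past AATAAA. The purple lines have SDs of 1.18, 0.75 and 0.67, with deleted tumour 2 lowest for RPSA and RPLP1 and wild-type tumour 2 lowest for RPS3.

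A few probes lie, by the files' coordinates, on the strand opposite to the other probes of their gene. For RPLP1 this is visible in the letters: A_11_P000005504 begins with the reverse complement of the first 36 bases of A_11_P190783. The first 30 bases of that run in the former, and the last 30 of it in the latter, are shown so that they can be set against each other.
RPLP1 A_11_P000005504: ttagtcaaagagaccaaagcccatgtcatc
RPLP1 A_11_P190783: gatgacatgggctttggtctctttgactaa
This probe read 6.22 to 6.54 over the 7 tumours. Opposite-strand probes of RPL19 and RPS9 read 8.45 to 9.61 and 9.15 to 10.28. They counted among the members by symbol.

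Some members stood out in single tumours at several probes. EIF4A2, the second eIF4A helicase, was highest in deleted tumour 1 at each of the 9 probes with a value on all arrays. At A_11_P064991 it read 13.32, 12.26, 11.89 and 12.50 against 12.70, 12.72 and 12.14, and the 10 differences between groups lay between -0.20 and 0.26. At the remaining probe the value of deleted tumour 1 was marked an outlier by the scanner software and left out, so its difference of -0.20 rests on 3 deleted tumours. RPL10A was lowest in that tumour, at 6.61 against 7.79 to 8.85 in the others. RPL37A was highest in it (17.02) and lowest in deleted tumour 3 (14.95).

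Of the members on chromosome 13, EIF3E, EIF3H and EEF1D had a like order of tumours. EIF3E, an eIF3 subunit at 11872935 to 11872994, read 15.03, 14.68, 13.21 and 13.41 in deleted tumours and 14.13, 14.01 and 13.65 in wild-type tumours. EIF3H at 19139191 to 19139250 read 14.63, 14.39, 13.14 and 13.61 against 14.30, 13.95 and 13.81. EEF1D at 40270900 to 40270959 read 15.75, 16.45, 15.05 and 15.39 against 15.43, 15.60 and 15.17. At these probes of all 3, deleted tumours 1 and 2 were the highest and deleted tumour 3 the lowest. At EIF3H probe A_11_P0000020824, wild-type tumour 1 (11.99) lay just above deleted tumour 1 (11.95). At EEF1D probe A_11_P0000020849, wild-type tumour 3 (14.55) lay just below deleted tumour 3 (14.58). RPL8 was split by probe. At 41133090 to 41133149 it was highest in deleted tumour 2 (16.21) and lowest in deleted tumour 3 (15.30), whereas at its brightest probe, at 41134768 to 41134824, deleted tumour 2 was the lowest of all 7 (16.42) and deleted tumour 1 the highest (17.19). The median deviation of these 4 genes, each at its brightest probe, was 0.56, 0.54, -0.65 and -0.26 in deleted tumours and 0.13, -0.02 and -0.27 in wild-type tumours, so the spread lay within the deleted group. With each factor gene at its brightest probe, EIF3E had the largest SD over tumours (0.67), followed by EIF2S3 (0.64) and EIF3H (0.51).

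**Figure D5:**
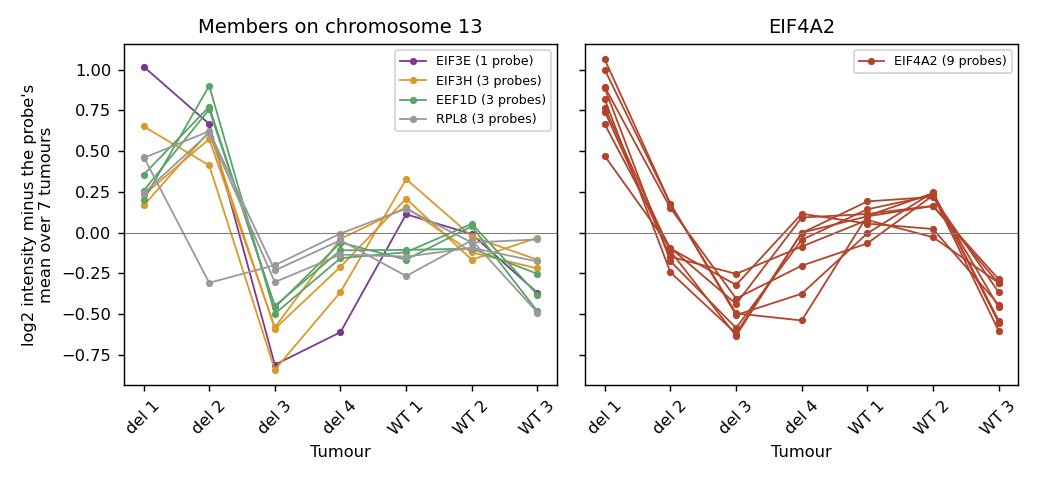
Log2 intensity minus the probe's own mean over the 7 tumours for the chromosome 13 members EIF3E, EIF3H, EEF1D and RPL8 and for EIF4A2; each line is 1 probe with a value on all 7 arrays. Deleted tumours 1 and 2 are high and deleted tumour 3 is low in most chromosome 13 lines, with 1 RPL8 probe low in deleted tumour 2, and all 9 EIF4A2 lines peak in deleted tumour 1.

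At the other end, RPL22L1 (A_11_P118306) and RPL13A had SDs among the smallest of the ribosomal protein genes, 0.06 and 0.10. The former is near the brightest rank of every array (17.72 to 17.83), where quantile normalization fixes the values, and the latter is dim (6.28 to 6.59). The probe named RPS4Y1 lies on the X chromosome (59216239 to 59216298) and read 16.72 to 17.60 in all tumours, whatever the sex label. RPL15, a large subunit protein, had 5 probes between -0.13 and 0.28 and a sixth at -0.70 (A_11_P136801, SE 0.30), which lies 1249 bases from the nearest of the others at 22869646 to 22869705 of chromosome 23.

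Through a RefSeq table, 18 further kept probes without a member symbol belong to genes that the symbols would include. Of these, 13 were lower and 5 higher, with a median difference of -0.25, and 1 stood at an unadjusted p below 0.05. That was EEF1A2, the muscle and nerve form of eEF1A, at 5.76, 5.82, 5.88 and 5.92 against 6.25, 5.97 and 6.22 (-0.30, SE 0.12, limma adjusted p = 0.665), near the floor of the scale. The 4 EEF1B2 probes named this way, bright at 12.54 to 15.63, had -0.52 to -0.39, unlike the dim EEF1B2 probe above. RPL26 spread most, with 11.22, 5.99, 8.24 and 8.98 against 9.60, 7.41 and 9.97, deleted tumour 2 being lowest once more.

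Lists of other translation genes were set beside the members, and none of their genes was called. Over all 10121 genes 769 (7.6%) stood at an unadjusted p below 0.05, 3.93% lower and 3.67% higher, and the counts of these lists are to be read against that. Other initiation factors had 3 of 17 genes at an unadjusted p below 0.05: EIF1 (0.35, SE 0.13) and EIF1B (0.40, SE 0.17), which govern start codon choice, were higher, and EIF2B3, of the factor that recharges eIF2, was lower (-0.56, SE 0.17). FAU, which codes for a small subunit protein fused to a ubiquitin-like one, was higher in every deleted tumour (0.41, SE 0.14), as 1 of 3 ribosome genes outside the naming rule. Ribosome biogenesis genes had 1 of 21, FBL, the nucleolar methyltransferase (-0.48, SE 0.18). Translation control kinases and stress genes had 1 of 15, TSC2, a repressor of mTOR (0.34, SE 0.13). Cytosolic tRNA synthetases had 2 of 21, AIMP2 (-0.48, SE 0.11) and WARS (0.79, SE 0.27), and poly(A) binding and release factors 0 of 6. Mitochondrial ribosomal proteins had 8 of 64 (12.5%), 6 of them lower (9.38%), including MRPL30 (-0.61, SE 0.13) and MRPS28 (-0.67, SE 0.18), with a median of -0.07.

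Marker lists of the tumour cells and of other cell types were set beside the members by their levels. Cell cycle genes were lower in the deleted group at 11 of 11 genes (median -0.63), with medians per tumour of -0.88, 0.01, -0.32 and 0.12 against 0.63, 0.73 and 0.02. Of the 11, MCM2, MCM5, MCM6 and PCNA stood at an unadjusted p below 0.05, all lower. These 4 were 36.4% of the list, where 3.93% of all genes stood below 0.05 and lower. The groups were separate at MCM5, MCM6 and PCNA. Deleted tumour 1, lowest of all in cell cycle genes, was among the highest in ribosomal protein genes. Other tumours went the other way: wild-type tumour 1 was high in both, and deleted tumour 3, lowest in ribosomal protein genes, was also low in cell cycle genes. Osteoblast genes had a median difference of -0.34 (7 genes), osteoclast -1.67 (5), endothelial 0.54 (5) and skeletal muscle 0.12 (6). Cartilage genes had 1.02 (6), with medians per tumour of -0.19, 2.18, 1.31 and -0.85 against -0.28, -0.60 and -0.68, so that deleted tumours 2 and 3 alone were high. Adipocyte genes had 0.95 (5), with -0.70, -0.31, -0.72 and 3.56 against -0.68, -0.55 and -0.40, so that by the median deleted tumour 4 alone was high. LEP was instead lowest in deleted tumour 4 (7.62). LPL was highest in it (10.01) and next highest in deleted tumour 3 (8.46). Leukocyte genes had 0.00 (10) with members on both sides. CD3E (0.64), CD8A (0.44) and MS4A1 (0.29), of lymphocytes, were higher in every deleted tumour at an unadjusted p below 0.05. These 3 were 30% of the list, where 7.6% of all genes stood below 0.05. CD8A read 6.3 to 7.0 and MS4A1 5.68 to 6.12, near the floor of the scale. Groups overlapped at CD4 (-0.09), CD79A (0.13) and CD79B (0.10), also of lymphocytes. They overlapped too at the macrophage genes CD68 (-0.77) and CSF1R (-0.66). The part of these markers in the member values was not tested.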

How the data were processed

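Total RNA of each of the 7 tumours was labelled with Cy3 and hybridised to 1 array. The deposited files hold the mean spot intensity, the median local background intensity and a processed intensity on a linear scale, per the file headers from Agilent Feature Extraction 10.7.3.1. Coordinates are those of the files (canFam2).

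Local background was subtracted, normexp (offset 50) was applied with its normal part taken from the 153 negative control spots, and values were quantile-normalized and put on the log2 scale (limma 3.58.1, R 4.3.3). limma's saddle fit was not used because on deleted tumour 1 it placed the background mean at -658.3 (SD 831.4), against -4.1 to 0.4 on the other arrays, while the negative control spots averaged 2.8 there. Control spots and 144 values marked as outliers were left out, and replicate spots were averaged. Of 43603 probes, 32309 were well above background on at least 3 arrays. No spot was marked saturated. The small number of arrays sets the precision.

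Groups came from the genotype label and were compared with limma (lmFit, eBayes, two-sided, no covariates). Genes were named by role, by separate groups with the smallest p (up to 8 per class), and by the 4 largest and 3 smallest SDs over tumours. Others (RPL15, chromosome 13 members, overlapping probes, list genes at an unadjusted p below 0.05) were chosen after their values were seen. The members and lists were chosen with earlier results of these data known. The erythroid list had no gene with a kept probe under its symbol. Some members that these rules name are not reported here. Computations were tested on simulated data. Of the 83 member symbols, 80 are in the RefSeq table (UU_Cfam_GSD_1.0). Placement of probes in exons or UTRs was not analysed here. Alternatives were other background corrections, scalings, filters, tests, blocks and covariates, and each tumour left out. Both saddle fits were added after seeing the data.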

Additional observations from a re-analysis of the deposited data

Results flagged for a closer look

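Among the named genes, 3 probes had 1 deleted tumour far from the other deleted tumours, judged by the gap to its neighbour over the range of the group (Dixon's limit for 4 samples). EEF2 at A_11_P208493 was highest in deleted tumour 4 (6.48 against 6.10 to 6.12, ratio 0.939), and without that tumour its difference was -0.48. EIF4H at A_11_P0000015273 was lowest in deleted tumour 1 (the others at 11.22 to 11.30, ratio 0.872). EIF4A2 at A_11_P0000031581 was highest in deleted tumour 1 (7.88 against 6.89 to 7.06, ratio 0.832). Of the 163 member probes with a value in all 4 deleted tumours, 6 passed the limit, and chance flags about 1 in 20.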

How the results depend on the processing

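The directions of the 10 member probes at an unadjusted p below 0.05 held under all 23 alternatives run. In 1 of these, slide as a fixed block, the group difference rests only on deleted tumours 2 and 3 and wild-type tumour 2. Theirs was the only slide that held both groups, and each other tumour was alone on its slide. The 2 EEF1A1 probes (-1.31 to -0.99 and -1.27 to -0.85) and EIF4EBP1 (0.46 to 0.81) stayed at an unadjusted p below 0.05 in all 23, RPS12 in 21, RPS7 in 19, EIF4G2 in 16, EEF2 in 13, EIF4H in 11, EIF3D in 9 and RPL7A in 8. Their ranges were -1.04 to -0.40 (RPS12), -0.49 to -0.22 (RPS7), 0.40 to 0.67 (EIF4G2), -1.14 to -0.15 (EEF2), -0.39 to -0.24 (EIF4H), -0.65 to -0.32 (EIF3D) and -0.49 to -0.17 (RPL7A). No member was called under any alternative. Called probes over the whole array, 0 in the main setting, numbered 4 with normexp and 75th percentile scaling, 10 with the processed signal and 75th percentile scaling, 4 with the processed signal and quantile normalization, 2 with probes well above background on all 7 arrays, 4 with the trend and robust options, 7 with array weights and 2 with slide as a random block. With a tumour left out they ranged from 0 to 47, the 47 without wild-type tumour 3.

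Ribosomal protein probes at an unadjusted p below 0.05 numbered 3 of 91 in the main setting, where 7.35% of the array stood there. They numbered 1 with the processed signal and quantile normalization (array share 6.96%) and 8 with array weights (array share 12%). They numbered 5 with slide as a random block (array share 8.5%) or age as a covariate (array share 6.03%). Leaving out a tumour gave 2 to 10. There were 10 without deleted tumour 1 (array share 7.87%), 6 without deleted tumour 4 (9.3%) and 6 without wild-type tumour 3 (7.95%). Factor probes numbered 7 of 73 in the main setting and 15 with array weights (array share 12%). They numbered 4 under 75th percentile scaling with normexp (7.17%) or the processed signal (7.08%), and with the processed signal and quantile normalization (6.96%). They also numbered 4 with the trend and robust options (6.83%), extraction session as a term (7.44%), or wild-type tumours 1 and 2 averaged (4.29%). Leaving out a tumour gave 4 to 9, with 4 without wild-type tumour 1 (array share 4.38%) and 4 without wild-type tumour 2 (4.8%). The methods' t-test placed 3 ribosomal protein probes, 8 factor probes and 6.94% of the array below 0.05. It called 0 after Benjamini-Hochberg adjustment. The median difference of the factor genes, -0.03, came to 0.0511 with the processed signal and 75th percentile scaling, 0.0848 with extraction session as a term and 0.0516 with age as a covariate, and lay between -0.09 and 0.02 with a tumour left out. That of the ribosomal protein genes, -0.09, came to -0.23 with slide as a fixed block, -0.18 with array weights, -0.02 with extraction session as a term and 0.06 with age as a covariate, and lay between -0.20 and -0.03 with a tumour left out. The causes were not tested. No paired analysis was possible because replicate numbers only name tumours of separate dogs.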
